A study of Rattus norvegicus with 90 samples.

Results

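The hearts of Sprague-Dawley rats were compared 8 or 24 h after a low dose of thioacetamide, with both times in 1 model. The comparison held 20 of the 90 libraries of the study, 10 from rats given 25 mg/kg of thioacetamide and 10 from rats given the saline vehicle (3 ml/kg), with 5 libraries of each treatment at each time. Members were chosen from the sample labels alone, by organ, dose, and duration. All were male rats bought at 10 weeks of age, fitted beforehand with a jugular vein catheter, and injected once into the peritoneal cavity. The groups of the shorter time were injected in the morning and had no food afterwards, whereas those of the longer time were injected in the afternoon of the day before and lost access to food for the last 8 h. Both were killed in the late afternoon, so that time after exposure, hour of injection, and feeding cannot be told apart. Treated and vehicle rats of 1 time shared that schedule, and no rat carried a genetic change. Whole hearts were powdered before RNA extraction, which mixes atria, ventricles, vessels, and blood, and poly-A RNA was selected for sequencing. In such bulk samples, fewer cells of a type and less RNA per cell cannot be told apart.

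Thioacetamide is an organosulfur compound used to injure the rat liver. It is not itself the damaging agent. Cytochrome P450 enzymes and flavin-containing monooxygenases oxidize it to reactive S-oxides, and these bind proteins and lipids mainly in the hepatocytes around the central vein, where the enzymes are abundant. The heart holds much less of this enzyme activity, and the study used heart tissue as a control organ. The question addressed here is therefore how far the heart transcriptome moved at the dose meant to cause little or no injury. Every result below is for a transcript with an Ensembl identifier. No table used here pairs these identifiers with genes, so no gene is named, and no statement on gene function, marker genes, or cell types is made. Where transcripts share sequence, as isoforms and close paralogs do, Kallisto divides their reads by estimate, so the level of a single transcript is less certain than that of a gene.

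Each library held 13429990 to 29557671 estimated counts on transcripts, and a count above 0 was found for 20918 to 24785 of them. A further 5.40 to 20.9% of each library fell on genomic intervals that the deposited tables list beside the transcripts and that were left out of the tests. The mean share was 11.4% (SD 6.78, n = 10) in low-dose libraries and 10.01% (SD 5.14, n = 10) in vehicle libraries, a difference of 1.35 percentage points (two-sided permutation test, p = 0.617). Within 8 h the difference was -1.40 and within 24 h 4.11 percentage points (exact permutation tests, p = 0.706 and 0.381). In 3 of the 5 low-dose libraries at 24 h (MS-62, MS-65, and MS-67) it was 20.2 to 20.9%, against 5.77 and 5.79% in the other 2, MS-83 and MS-82. The vehicle hearts of 24 h had 12.7% (MS-61), 16.8% (MS-64), and 6.34 to 10.5% in the other 3. The shallowest libraries were MS-89 (vehicle, 8 h) and MS-90 (low dose, 8 h), with 13429990 and 14098048 counts. The median Pearson correlation of log2(CPM + 1) with the other 19 libraries was lowest for MS-90 (0.964) and highest for MS-79 (0.978), over transcripts averaging 2 CPM or more. All 20 libraries were closer to the mean heart vehicle profile (Spearman's rho of 0.903 to 0.937 across transcripts) than to that of kidney (0.799 to 0.845) or liver (0.777 to 0.813). No pair of the 20 libraries looked like a repeated one. At most 4.34% of transcripts with 10 counts or more in either library of a pair differed by no more than 1 count.

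After the low dose, no heart transcript passed an adjusted p-value up to 0.01 together with a difference of 1.82-fold or more (0 of 18229 tested, 0.0%). The test was edgeR's quasi-likelihood test with Benjamini-Hochberg adjustment. The study set the same numbers with another tool, Sleuth, whose effect size is not this fold change. It counted 2 differentially expressed genes at 8 h and 6 at 24 h in low-dose hearts. By DESeq2, 5 transcripts (0.0274%) passed the thresholds used here, all higher after the low dose, and limma on log2(TPM + 1) gave 0. With the adjusted p-value allowed to reach 0.05 and no fold limit, edgeR called 6 transcripts (0.0329% of those tested). All 6 rose. In addition, 1366 transcripts (7.49%) had an unadjusted p-value under 0.05, 769 of them higher (4.22%) and 597 lower (3.28%). The number of calls moved with single libraries, while the fold changes moved little. The count was 0 when MS-89 and MS-90 were left out together, and also when any one of MS-62, MS-64, MS-65, MS-69, MS-73, MS-78, MS-79, MS-80, MS-81, MS-83, MS-89, or MS-90 was left out (12 of 20 fits). It was 1 without MS-88, 2 without MS-61, 3 without MS-67, MS-70, or MS-72, 7 without MS-109, 10 without MS-82, and 32 without MS-76. In the same 20 fits, the log2 fold change stayed between 0.28 and 0.33 for ENSRNOT00000048529 and between 1.02 and 1.27 for ENSRNOT00000020505, the smallest and the largest of the 6. The highest adjusted p-value was 0.104 for 5 of the 6 and 0.129 for ENSRNOT00000028066. DESeq2 called 0.554% of transcripts at this threshold, 71 higher and 30 lower, and edgeR with the interval share of each library in the fit called 5.

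The distribution of fold changes was narrow. Over the 18229 transcripts, the median log2 fold change was 0.00036 and 95% of absolute values lay below 0.50. The corresponding 95th percentile was 0.60 within 8 h (17703 transcripts) and 0.66 within 24 h (17707 transcripts), each with 5 against 5 libraries. It was 0.56 between the 5 vehicle hearts of 24 h and the 5 of 8 h, which differ by no thioacetamide at all. Between high dose and vehicle it was 0.65 at 8 h and 0.82 at 24 h. No transcript passed an adjusted p-value of 0.05 between the vehicle groups (0.0% of 17629, edgeR), although 918 (5.21%) had an unadjusted p-value under 0.05. For 85.3% of the transcripts tested, the 95% confidence interval of the low-dose fold change lay wholly within the 1.82-fold limit. That share was 50.6% of the 4104 transcripts under 2 CPM, 90.7% of the 5286 from 2 to 10 CPM, 98.1% of the 7643 from 10 to 100 CPM, and 99.1% of the 1196 at 100 CPM or more. For the rarer transcripts the interval often reached past the limit, so that a change of that size was not excluded for them. These intervals were worked back from the F statistic of the test and are approximate.

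**Figure D1:**
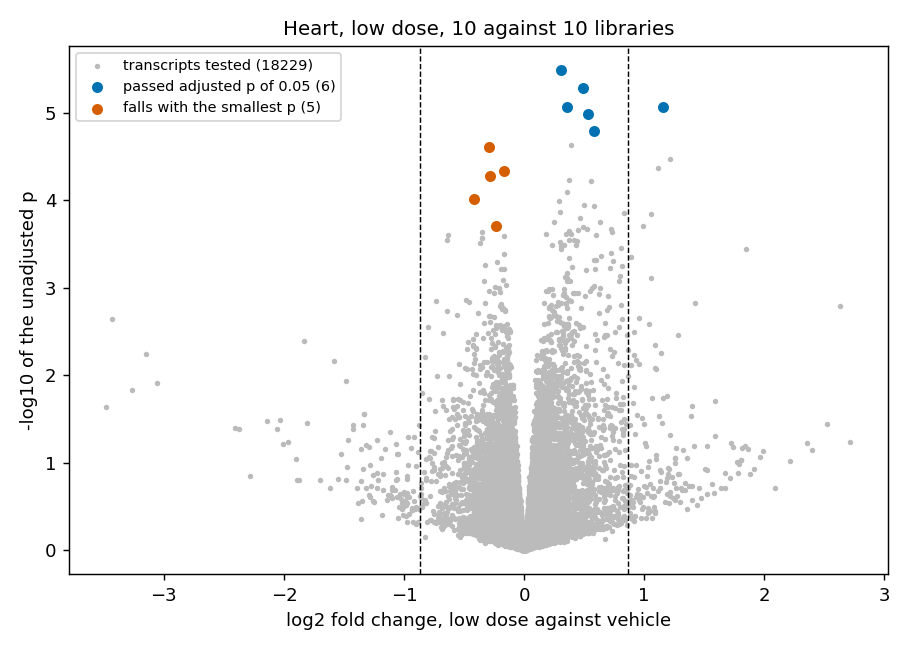
Each point is 1 of the 18229 heart transcripts tested; the x axis gives the log2 fold change of 10 low-dose against 10 vehicle libraries and the y axis -log10 of the unadjusted p-value, with dashed lines at the fold limit of 0.87 on the log2 scale. The 6 transcripts that passed an adjusted p-value of 0.05 (blue) lie to the right of 0, only ENSRNOT00000020505 lies beyond the fold limit, and the 5 negative differences with the smallest p-values (orange) lie close to 0.

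The transcript with the smallest p-value was ENSRNOT00000048529 (2136 bases). Its levels in vehicle hearts were 31.03, 31.3, 32.2, 29.9, and 29.2 CPM (counts scaled to library size) at 8 h and 35.6, 33.3, 31.5, 34.5, and 27.7 CPM at 24 h. In low-dose hearts they were 36.6, 32.7, 36.6, 39.2, and 42.2 CPM at 8 h and 41.6, 43.4, 39.1, 38.2, and 43.05 CPM at 24 h. The groups did not overlap within either time, and 9 of 10 low-dose hearts exceeded every vehicle heart of both times. The difference was small and even, with a log2 fold change of 0.31 (SE 0.049, a 1.24-fold level, adjusted p = 0.0381). Alone, the times gave 0.28 (SE 0.070) at 8 h and 0.34 (SE 0.073) at 24 h.

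ENSRNOT00000020505, a long transcript of 4550 bases with a low level, was the only one of the 6 beyond the fold limit. Over the 30 alternative fits its log2 fold change ranged from 0.73 to 1.27, so it did not pass the limit of 0.87 in all of them. The 20 fits without 1 library gave 1.02 to 1.27, and DESeq2 gave 1.16. Vehicle hearts had 5.48, 4.94, 4.28, 8.19, and 1.76 CPM at 8 h and 5.08, 4.84, 4.93, 4.42, and 5.85 CPM at 24 h. Low-dose hearts had 10.5, 7.85, 7.63, 19.4, and 10.4 CPM at 8 h and 9.45, 10.6, 13.9, 9.32, and 12.7 CPM at 24 h. At 24 h the groups were far apart, while at 8 h a pair of low-dose hearts lay below the highest vehicle heart and MS-78, at 19.4 CPM, lay well above the rest. The log2 fold change was 1.16 (SE 0.20, 2.24-fold, adjusted p = 0.0381). It was 1.17 (SE 0.36) at 8 h and 1.16 (SE 0.13) at 24 h, where the transcript also passed on its own (adjusted p = 0.0243).

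The transcript ENSRNOT00000028066 (2643 bases) had 10.8, 7.30, 6.63, 8.56, and 6.61 CPM in the vehicle hearts of 8 h and 9.49, 7.77, 7.80, 8.06, and 7.54 CPM in those of 24 h. After the low dose it had 10.5, 10.6, 9.89, 11.7, and 10.9 CPM at 8 h and 16.1, 11.6, 15.8, 10.01, and 14.8 CPM at 24 h. The groups met at 8 h, where the highest vehicle heart lay among the low-dose hearts, and separated at 24 h. Its log2 fold change was 0.58 (SE 0.10, 1.499-fold, adjusted p = 0.0498), with 0.42 at 8 h and 0.75 at 24 h. The test of that difference between the times did not pass (difference 0.32, 95% confidence interval -0.09 to 0.74).

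The remaining 3 transcripts had an adjusted p-value of 0.0381 each. For ENSRNOT00000005645, a short transcript of 568 bases, the vehicle ranges were 10.1 to 12.1 CPM at 8 h and 9.35 to 13.7 CPM at 24 h, and the low-dose ranges 13.9 to 17.8 and 12.7 to 18.6 CPM. Its groups were apart at 8 h and met at 24 h only through the vehicle heart MS-61. The log2 fold change was 0.49 (SE 0.080, 1.41-fold). For ENSRNOT00000025222 (3953 bases), the vehicle ranges were 24.4 to 33.2 and 25.4 to 30.6 CPM, and the low-dose ranges 34.9 to 40.6 and 30.5 to 41.8 CPM. Here 9 of 10 low-dose hearts exceeded every vehicle heart, with a log2 fold change of 0.36 (SE 0.060, 1.28-fold). For ENSRNOT00000017687 (3311 bases), the vehicle ranges were 4.71 to 6.72 and 4.5999 to 6.02 CPM, and the low-dose ranges 6.61 to 9.12 and 6.47 to 9.95 CPM. Of its low-dose hearts, 8 of 10 exceeded every vehicle heart, with a log2 fold change of 0.54 (SE 0.092, 1.45-fold). For each of the 6 transcripts, all 10 low-dose hearts lay above the median of the vehicle hearts, which is a description of how they were chosen.

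**Figure D2:**
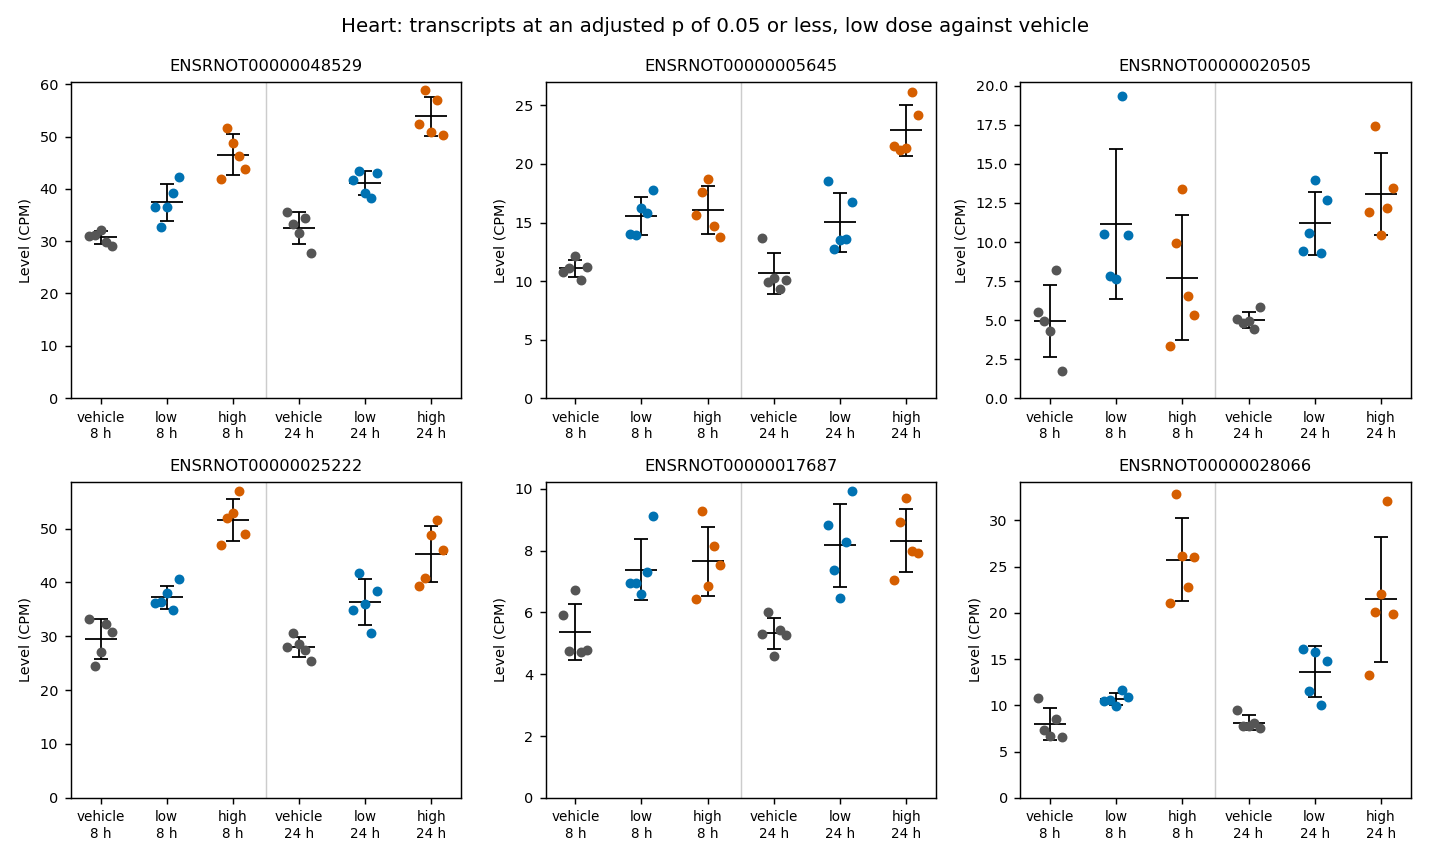
Levels in CPM (y axis, from 0) of the 6 transcripts at an adjusted p-value of 0.05 or less, in each heart library (points) by dose and time (x axis), with the mean (long bar) and SD (short bars) of 5 libraries per group. The low-dose points of ENSRNOT00000048529 lie between 32.7 and 43.4 CPM and the vehicle points between 27.7 and 35.6 CPM; high-dose libraries, in orange, were not used to choose the transcripts.

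The same transcripts were read in the high-dose hearts (100 mg/kg, 5 libraries at each time), which the choice of the 6 did not use. High and low dose were each compared with the same vehicle hearts, so the values stand side by side and are not independent. For ENSRNOT00000048529 the mean log2 difference from vehicle at 8 h was 0.28 after the low dose and 0.60 after the high dose (adjusted p = 0.00596), and at 24 h it was 0.34 and 0.73 (adjusted p = 5.84e-04). The order vehicle, low, high held for the means at both times. For ENSRNOT00000028066 the high-dose hearts had 21.02, 32.8, 26.1, 22.8, and 26.003 CPM at 8 h and 13.3, 20.1, 22.04, 32.1, and 19.8 CPM at 24 h, and none of the 10 lay below 13.3 CPM. That was a log2 difference of 1.68 (adjusted p = 0.00203) at 8 h and 1.40 (adjusted p = 0.00213) at 24 h. ENSRNOT00000025222 differed by 0.80 (adjusted p = 0.00725) and 0.69 (adjusted p = 0.00101). At 24 h the high dose also raised ENSRNOT00000005645 by 1.10, ENSRNOT00000020505 by 1.38, and ENSRNOT00000017687 by 0.65 on the log2 scale, with adjusted p-values of 4.71e-04, 4.71e-04, and 0.0057. At 8 h these 3 did not pass after the high dose (adjusted p = 0.0679, 0.687, and 0.227), and ENSRNOT00000020505 ranged from 3.31 to 13.4 CPM there. Of all transcripts tested, 4.30% passed as higher at 24 h after the high dose and 0.0742% at 8 h.

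In kidney and liver, the low dose gave positive fold changes for all 6 transcripts. The organs were taken from the same rats, so these are other tissues of the same animals and not further animals. In the kidney, with 10 low-dose and 10 vehicle libraries and the same model, 4 of the 6 rose at an adjusted p-value of 0.05, where 3.14% of 19189 transcripts did. They were ENSRNOT00000048529 (log2 fold change 0.56, SE 0.11, adjusted p = 0.00373), ENSRNOT00000025222 (0.34, adjusted p = 0.0358), ENSRNOT00000028066 (0.35, adjusted p = 0.0418), and ENSRNOT00000017687 (0.25, adjusted p = 0.0484). ENSRNOT00000020505 had 0.84 (95% confidence interval 0.22 to 1.47, adjusted p = 0.111), and ENSRNOT00000005645 had 0.06 (-0.25 to 0.37, adjusted p = 0.886).

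For the liver, the libraries MS-1 (vehicle) and MS-9 (low dose) were left out, because they held nearly the same counts (99.97% of transcripts with 10 counts or more differed by no more than 1). With 9 libraries per treatment, 5 of the 6 rose, where 21.7% of 17114 transcripts did. The largest was ENSRNOT00000017687 (log2 fold change 1.22, SE 0.19, adjusted p = 4.79e-05), followed by ENSRNOT00000020505 at 0.76 (adjusted p = 0.0189) and ENSRNOT00000028066 at 0.74 (adjusted p = 0.00226). ENSRNOT00000025222 had 0.64 (adjusted p = 0.0146) and ENSRNOT00000048529 0.36 (adjusted p = 0.0462). ENSRNOT00000005645 did not pass, at 0.28 (adjusted p = 0.168). With MS-1 and MS-9 kept, 2 of the 6 passed, ENSRNOT00000017687 (adjusted p = 9.87e-04) and ENSRNOT00000020505 (adjusted p = 0.0354), where 13.8% of 16976 transcripts rose. Per length, ENSRNOT00000048529 had a median of 15.1 TPM (counts scaled to transcript length and library size) in vehicle hearts, 27.2 TPM in kidneys, and 69.5 TPM in livers, while ENSRNOT00000020505 was lowest in the liver (1.13, 0.691, and 0.142 TPM).

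**Figure D3:**
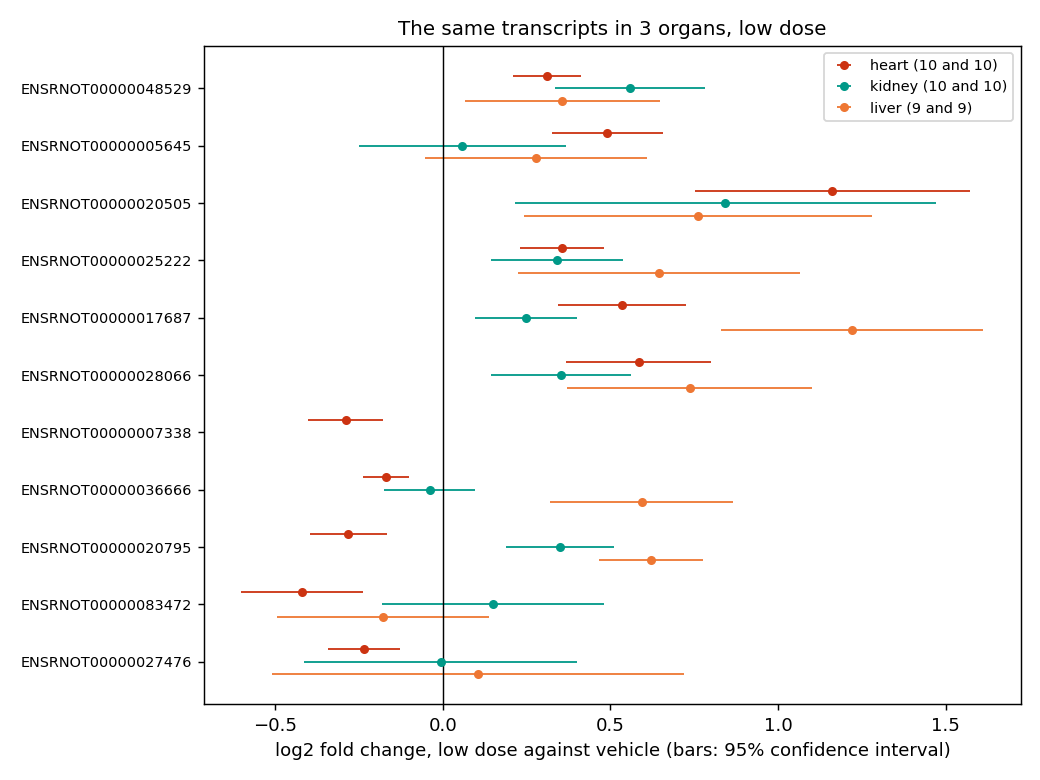
Log2 fold changes (x axis) of low dose against vehicle for the 6 transcripts called in the heart and the 5 negative differences with the smallest p-values, in heart, kidney (10 libraries per treatment each), and liver (9 per treatment), with 95% confidence intervals as bars. All 6 called transcripts lie to the right of 0 in the 3 organs, and ENSRNOT00000020795 lies left of 0 in the heart (-0.28) and right of it in kidney (0.35) and liver (0.62).

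No transcript passed as lower in the pooled edgeR fit of all 20 libraries. The 5 negative differences with the smallest p-values had adjusted p-values from 0.0556 to 0.115 and are given as values that did not pass. By DESeq2 all 5 passed at 0.05, with adjusted p-values from 7.24e-05 (ENSRNOT00000036666) to 0.00387 (ENSRNOT00000027476). ENSRNOT00000007338 (1398 bases) was abundant in the heart, with a median of 319 TPM over the vehicle hearts, and nearly absent elsewhere, with no vehicle kidney above 0.165 and no vehicle liver above 0.0329 TPM. Vehicle hearts had 441, 544, 428, 419, and 434 CPM at 8 h and 427, 392, 385, 408, and 338 CPM at 24 h. Low-dose hearts had 374, 373, 379, 387, and 366 CPM at 8 h and 281, 317, 347, 341, and 287 CPM at 24 h. All 5 low-dose hearts of 8 h lay below the vehicle hearts of 8 h, and at 24 h the groups met. The log2 fold change was -0.29 (SE 0.053). After the high dose it was -0.21 at 8 h (adjusted p = 0.472) and -0.52 at 24 h, where the transcript passed as lower (adjusted p = 0.00825; 3.15% of transcripts did).

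ENSRNOT00000036666 (3789 bases) was the only one of the 14125 transcripts averaging 2 CPM or more whose 10 low-dose and 10 vehicle values did not overlap (0.00708%). The vehicle hearts had 243, 256, 239, 245, and 239 CPM at 8 h and 239, 274, 261, 232, and 232 CPM at 24 h. The low-dose hearts had 220.5, 222, 212, 220.4, and 226 CPM at 8 h and 229.8, 218, 215, 209.8, and 215 CPM at 24 h. The gap between the groups was small, 229.8 against 231.8 CPM, and so was the log2 fold change of -0.17 (SE 0.033, adjusted p = 0.0776). High-dose hearts ranged from 201 to 230.2 CPM at 8 h and from 191 to 225 CPM at 24 h. In the liver the same transcript rose (0.59, adjusted p = 0.0013), and in the kidney its value was -0.04 (95% confidence interval -0.17 to 0.10).

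ENSRNOT00000020795 (1952 bases) ranged from 125 to 174 CPM in the 10 vehicle hearts and from 106.2 to 128 CPM in the 10 low-dose hearts, 8 of which lay below every vehicle heart. Its log2 fold change in the heart was -0.28 (SE 0.055, adjusted p = 0.0782). It rose in the kidney (0.35, adjusted p = 0.0102) and in the liver (0.62, adjusted p = 4.37e-06). ENSRNOT00000027476 (3861 bases) was a heart transcript by its level, with 63.4 TPM in the median vehicle heart against 0.412 in kidney and 0.0854 TPM in liver. Its vehicle range of 201 to 277 CPM overlapped the low-dose range of 173 to 251 CPM (log2 fold change -0.23, SE 0.052, adjusted p = 0.115). After the high dose it was lower at 8 h (-0.32, adjusted p = 0.0382; 0.0228% of transcripts passed as lower) and at 24 h (-0.36, adjusted p = 0.0467). ENSRNOT00000083472 (925 bases) had the largest of the 5 differences, -0.42 (SE 0.087, adjusted p = 0.11), with 15.03 to 23.8 CPM in vehicle and 10.7 to 19.2 CPM in low-dose hearts. In high-dose hearts of 24 h its difference was -0.06 (95% confidence interval -0.35 to 0.23).

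Within each time alone, few transcripts or none were called. At 8 h, with 5 low-dose and 5 vehicle hearts, no transcript passed either threshold (0.0% of 17703, edgeR). An unadjusted p-value under 0.05 was held by 696 (3.93%). DESeq2 called 1 (0.00565%) at the stricter threshold, as did edgeR when MS-76 was left out. At the looser threshold DESeq2 called 16 (0.0904%), 9 higher and 7 lower. At 24 h none passed the stricter one (0.0% of 17707), DESeq2 called 7 (0.0395%), and 1624 (9.17%) had an unadjusted p-value under 0.05. An adjusted p-value of 0.05 was passed by 6 transcripts at 24 h (0.0339%), 5 higher (0.0282%) and 1 lower (0.00565%). DESeq2 called 198 there (1.12%), 110 higher and 88 lower. The edgeR count was 0 when any one of 5 of the 10 libraries was left out. They were the vehicle hearts MS-61, MS-64, MS-79, and MS-81 and the low-dose heart MS-83. The edgeR count was 2 without MS-62 and 3 without MS-82. The direct test of the difference between the times was an interaction over 20 libraries. It passed at 0.05 for 2 of 18784 transcripts (0.0106%) and at 0.01 for none (0.0%). An unadjusted p-value under 0.05 was held by 1116 (5.94%), and DESeq2 called 4 at 0.01 (0.0213%). The interval share of each library was added to neither the fit of 24 h nor the interaction. That share differed by 4.11 percentage points between the groups of 24 h. The transcripts called by edgeR at 24 h or in the interaction were taken up after their values had been seen.

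Both transcripts of the interaction were higher in the vehicle hearts of 24 h than in those of 8 h, and were lower after the low dose at 24 h. ENSRNOT00000035491 (2502 bases) had 34.9, 43.3, 35.6, 36.7, and 40.3 CPM in vehicle hearts and 41.1, 39.7, 41.5, 36.5, and 43.96 CPM in low-dose hearts at 8 h. At 24 h it had 45.9, 53.5, 53.1, 42.8, and 52.97 CPM in vehicle hearts and 31.7, 36.96, 30.4, 32.7, and 30.7 CPM in low-dose hearts. The groups overlapped at 8 h and were apart at 24 h. The low-dose difference was 0.09 at 8 h and -0.61 at 24 h (adjusted p = 0.0353), and their difference was -0.71 (SE 0.11, adjusted p = 0.0388). ENSRNOT00000011648 (4394 bases) had 33.6, 34.98, 30.98, 33.02, and 37.1 CPM with vehicle and 38.3, 38.6, 39.4, 37.7, and 40.4 CPM with the low dose at 8 h. At 24 h the values were 44.7, 40.4, 48.7, 35.6, and 37.99 CPM and 28.3, 31.96, 25.7, 27.1, and 31.96 CPM. Low-dose hearts thus lay above all vehicle hearts at 8 h and below all of them at 24 h, with differences of 0.20 and -0.52 on the log2 scale, which differed by -0.72 (SE 0.11, adjusted p = 0.0388). After the high dose, ENSRNOT00000011648 differed from the same vehicle hearts by -0.17 at 8 h (edgeR, adjusted p = 0.656) and -0.60 at 24 h (adjusted p = 0.0102). For ENSRNOT00000035491 the high-dose values were -0.36 (adjusted p = 0.245) and -0.77 (adjusted p = 0.00335). At 8 h the high-dose values were thus opposite in sign to the low-dose values for both transcripts. Between the vehicle groups, 24 h exceeded 8 h by 0.38 (adjusted p = 0.935) for ENSRNOT00000035491 and by 0.29 (adjusted p = 0.935) for ENSRNOT00000011648, and neither passed. With the high-dose hearts in the fit, the interaction passed for neither transcript (adjusted p = 0.241 and 0.232), but the differences were nearly as before (-0.70 and -0.72). Of the 20 fits without 1 library, both transcripts passed in those without MS-73, MS-80, or MS-65, and ENSRNOT00000011648 alone of the pair in that without MS-83. In the other 16 neither passed (adjusted p = 0.0602 to 0.14). Over the 20 fits the difference stayed between -0.76 and -0.67 for ENSRNOT00000035491 and between -0.77 and -0.65 for ENSRNOT00000011648.

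At 24 h alone, ENSRNOT00000016330 (2912 bases) had 129.5, 145, 139.7, 142, and 146 CPM with vehicle and 205, 196, 189, 204, and 214 CPM with the low dose, a difference of 0.52 (SE 0.053, adjusted p = 0.0152). At 8 h its difference was 0.06 (95% confidence interval -0.23 to 0.35). ENSRNOT00000078349 (2770 bases) had 180.2, 185, 178, 176, and 185 CPM with vehicle and 241, 224, 217, 235, and 248 CPM with the low dose at 24 h, a difference of 0.37 (SE 0.051, adjusted p = 0.0472). Neither range overlapped at 24 h, and both transcripts were much more abundant in the liver, with medians of 339.8 and 508 TPM in vehicle livers against 48.8 and 67.9 TPM in vehicle hearts. In the liver both fell after the low dose (-0.69 and -0.68, adjusted p = 0.00105 and 5.40e-05; 20.4% of liver transcripts fell). ENSRNOT00000017060 (1083 bases) ranged from 24.6 to 29.5 CPM with vehicle and from 35.5 to 47.0003 CPM with the low dose at 24 h (0.68, SE 0.088, adjusted p = 0.0353), and ENSRNOT00000003082 (1499 bases) from 5.58 to 6.90 and from 9.32 to 13.2 CPM (0.83, SE 0.11, adjusted p = 0.0353). After the high dose at 24 h, the levels of these 4 transcripts were higher again, at 235 to 279 CPM for ENSRNOT00000016330, 252 to 285 CPM for ENSRNOT00000078349, 57.5 to 79.2 CPM for ENSRNOT00000017060, and 11.9 to 18.5 CPM for ENSRNOT00000003082. For the last, low-dose and high-dose ranges overlapped. The interaction did not pass for any of the 4 (adjusted p = 0.724, 0.723, 0.737, and 0.878), so a difference between the times was not shown for them.

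**Figure D4:**
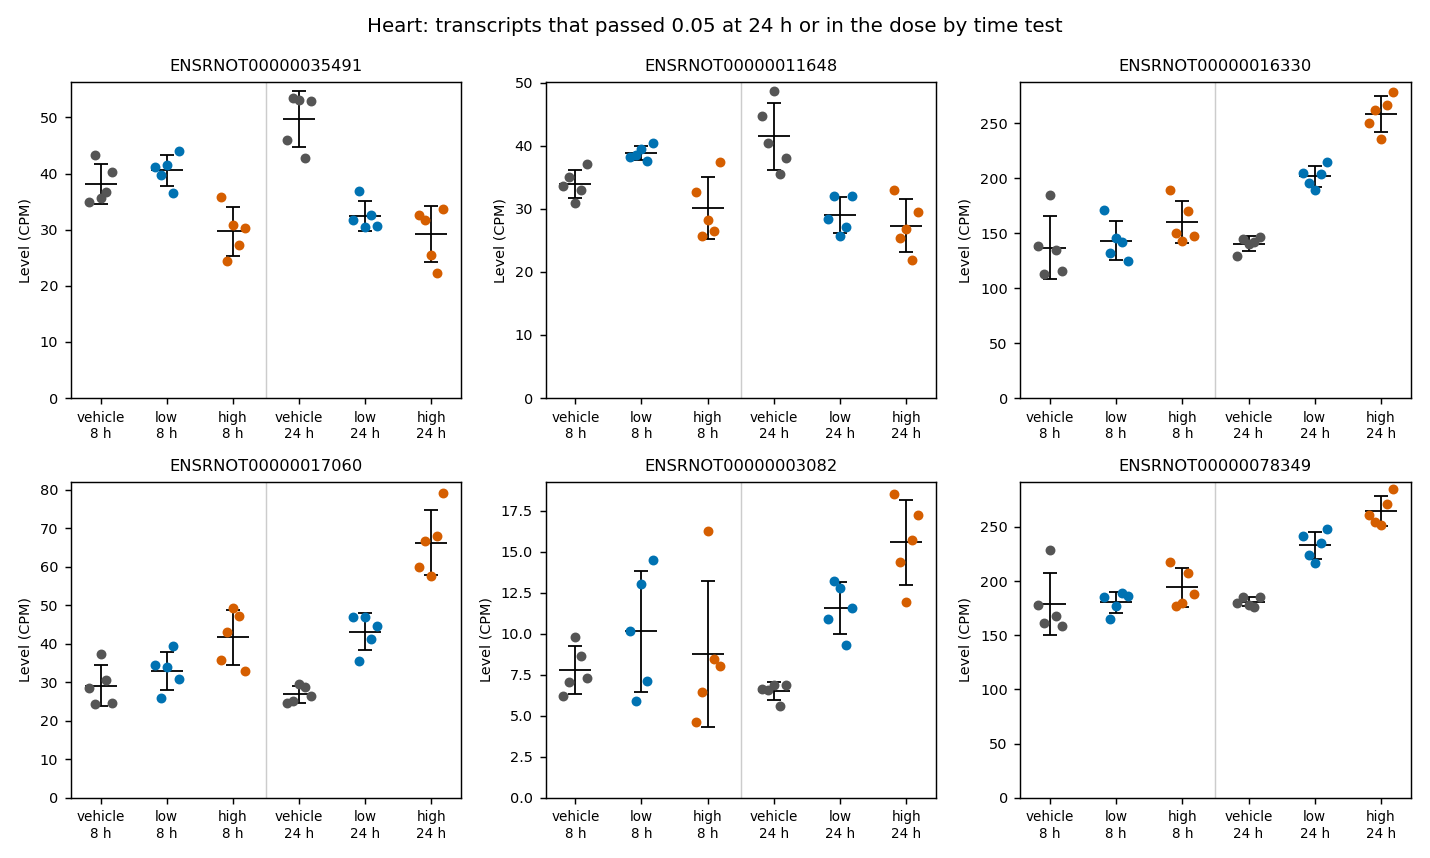
Levels in CPM (y axis, from 0) in each heart library (points) by dose and time (x axis), with mean and SD of 5 libraries per group, for the transcripts that passed an adjusted p-value of 0.05 at 24 h or in the test of dose by time (ENSRNOT00000020505, which passed at 24 h, is plotted with the pooled calls). For ENSRNOT00000011648 the low-dose points lie above the vehicle points at 8 h and below them at 24 h; for ENSRNOT00000016330 they lie apart only at 24 h, at 189.3 to 214.4 CPM against 129.5 to 146.3 CPM.

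Across transcripts, the low-dose differences of the 2 times were nearly uncorrelated. The typical difference was smaller than its error. The median absolute log2 fold change was 0.094 at 8 h and 0.11 at 24 h, against a median SE of 0.14 and 0.13. A correlation near 0 therefore does not show that the responses of the times differed. The 8 h and 24 h comparisons share no library. Over 17359 transcripts tested at both times, Spearman's rho of the log2 fold changes was 0.03, and over the 8839 averaging 10 CPM or more it was 0.06, as a description across transcripts that share the libraries of each group. The sign was the same for 50.7% of all of them. Of the 1602 with an unadjusted p-value under 0.05 at 24 h, 56.1% had the same sign at 8 h. Of the same 1602, 6.37% also had a p-value under 0.05 in the same direction at 8 h. Of all 17703 transcripts tested at 8 h, 2.06% were higher with such a p-value and 1.87% lower. A p-value under 0.05 at both times was held by 135 transcripts (0.778% of the 17359), where 9.23% had one at 24 h and 3.96% at 8 h. Of these, 77 were higher at both times, 25 lower at both, and 33 opposite.

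DESeq2 called 5 transcripts at the stricter threshold (0.0274% of the 18229 in the fit), ENSRNOT00000020505 and 4 that edgeR did not call at 0.05. They were taken up after their values had been seen. The largest was ENSRNOT00000050063 (1594 bases), with 3.85, 3.85, 8.47, 4.98, and 3.89 CPM in vehicle and 13.2, 10.8, 12.2, 10.1, and 12.1 CPM in low-dose hearts at 8 h. At 24 h it had 5.08, 4.39, 3.53, 6.80, and 4.26 CPM and 5.78, 21.3, 15.6, 5.07, and 8.32 CPM. The groups were apart at 8 h and met at 24 h, where MS-65 and MS-67 stood far above the other low-dose hearts. Its log2 fold change in edgeR was 1.22 (SE 0.23, adjusted p = 0.068; by DESeq2 1.22, adjusted p = 2.05e-04).

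The other 3 varied as strongly between rats. ENSRNOT00000077764 (1329 bases) had 4.96, 4.98, 11.1, 5.57, and 3.09 CPM in vehicle and 18.3, 10.02, 20.5, 10, and 17.97 CPM in low-dose hearts at 8 h, and ranged from 5.02 to 6.36 and from 6.67 to 17.4 CPM at 24 h (edgeR log2 fold change 1.12, SE 0.21, adjusted p = 0.0776; DESeq2 adjusted p = 3.00e-04). ENSRNOT00000003343 (1874 bases) had 8.30, 11.4, 18.9, 11.8, and 8.74 CPM and 30.8, 14.9, 26.1, 17.3, and 47.7 CPM at 8 h, and ranged from 9.79 to 12.2 and from 13.8 to 40.6 CPM at 24 h (1.06, SE 0.23, adjusted p = 0.115; DESeq2 adjusted p = 0.00178). For ENSRNOT00000037181 (1878 bases), the ranges at 8 h were 4.26 to 11.6 and 7.28 to 16.7 CPM and at 24 h 3.55 to 7.18 and 7.40 to 20.5 CPM (0.99, SE 0.22, adjusted p = 0.115; DESeq2 adjusted p = 0.00404). In all 4 of these transcripts the vehicle heart MS-76 was the highest vehicle heart of 8 h. For each of them all 10 low-dose hearts lay above the vehicle median, which is a description of how they were chosen. Leaving out the highest vehicle heart of 8 h raises their fold changes by construction. Without MS-76, edgeR called 32 transcripts at an adjusted p-value of 0.05, 29 of them higher, and these 4 were among them, with log2 fold changes of 1.34, 1.26, 1.16, and 1.16 in the order given. Of the other 19 fits that left out 1 library, those 4 passed in none, except ENSRNOT00000050063 and ENSRNOT00000077764 without MS-82. In high-dose hearts of 24 h, ENSRNOT00000077764, ENSRNOT00000003343, and ENSRNOT00000037181 rose by 1.11, 1.47, and 1.72 (adjusted p = 4.99e-04, 3.00e-04, and 0.00335), while ENSRNOT00000050063 had 1.36 (adjusted p = 0.0509). In the liver without MS-1 and MS-9, the same 3 rose by 1.01, 1.83, and 0.93 (adjusted p = 0.0146, 5.81e-04, and 3.52e-04), where 21.7% of transcripts rose. ENSRNOT00000050063 had 1.36 there and did not pass (adjusted p = 0.0712). In the kidney, where 3.14% rose, ENSRNOT00000050063 (0.97, adjusted p = 0.0483) and ENSRNOT00000003343 (0.74, adjusted p = 0.0311) passed. ENSRNOT00000077764 (0.36, adjusted p = 0.237) and ENSRNOT00000037181 (0.65, adjusted p = 0.202) did not.

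The transcripts that responded to the high dose gave a second view of the low-dose hearts. To keep the libraries apart, transcripts called at 24 h after the high dose (162 of 17574, 0.922%, at the stricter threshold) were read in the low-dose comparison at 8 h, which shares neither treated nor vehicle hearts with it. Of the 119 that rose after the high dose (0.677%), 98 (82.4%) had a positive low-dose difference at 8 h, as did 49.3% of all transcripts there. Their median log2 difference was 0.26, against -0.0020 for all 17703, and 30 (25.2%) were higher with an unadjusted p-value under 0.05, against 2.06% of all. None passed an adjusted p-value of 0.05, since no transcript did at 8 h. Of the 43 that fell after the high dose (0.245%), 29 (67.4%) had a negative difference at 8 h, against 50.7% of all, with a median of -0.07, and 4 (9.30%) were lower with an unadjusted p-value under 0.05, against 1.87%. The other pairing, high dose at 8 h with low dose at 24 h, had few transcripts. Of the 13 that rose at 8 h after the high dose at an adjusted p-value of 0.05, 12 had a positive low-dose difference at 24 h (51.3% of all did), with a median of 0.42, and 7 were higher with an unadjusted p-value under 0.05 (5.19% of all). Of the 4 that fell, 3 were tested at 24 h, and 2 of these had a negative low-dose difference (48.7% of all did), with values from -0.32 to 1.56. These counts describe sets of transcripts that can share reads and were not tested.

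**Figure D5:**
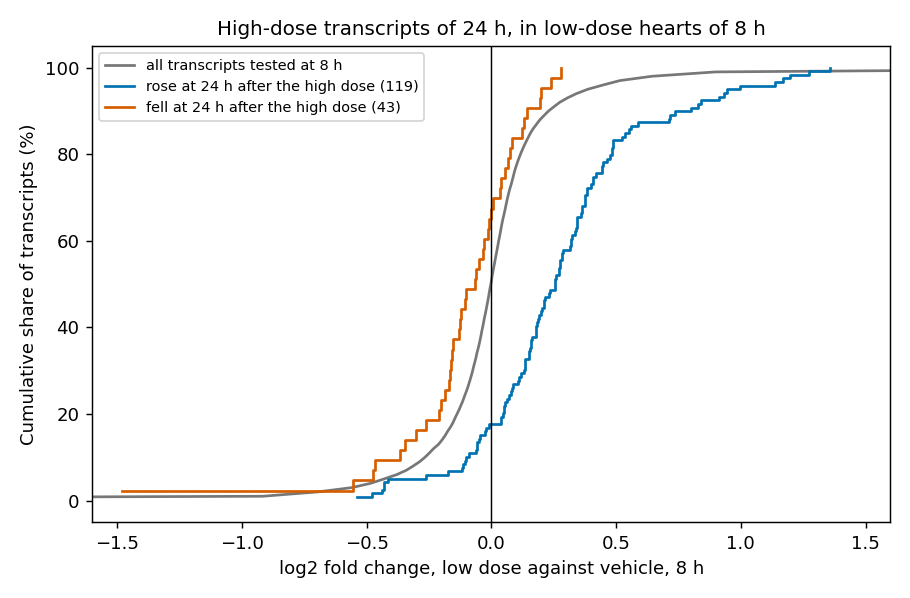
Cumulative share of transcripts (y axis, percent) against the log2 fold change of low dose against vehicle at 8 h (x axis, cut at -1.6 and 1.6), for all 17703 transcripts tested at 8 h (grey) and for those that rose (119, blue) or fell (43, orange) at 24 h after the high dose, with different rats in each comparison. The blue line lies to the right of the grey one, with a median of 0.26, and the orange line slightly to its left, with a median of -0.07.

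At 8 h after the high dose, 3 transcripts passed the stricter threshold, all higher (0.0171% of 17519), and ENSRNOT00000028066 was one of them. The others were ENSRNOT00000003770 and ENSRNOT00000070912. In low-dose hearts ENSRNOT00000003770 (2995 bases) had 12.7, 14.04, 16.3, 15.99, and 11.5 CPM at 8 h and 20.4, 15.5, 18.97, 13.6, and 18.5 CPM at 24 h. Vehicle hearts had 12.2, 11.5, 13.9, 12.6, and 13.003 CPM and 11.9, 12.4, 12.3, 14.6, and 12.3 CPM. The low-dose values overlapped the vehicle values at both times, and no high-dose heart of either time lay below 18.1 CPM. The pooled low-dose log2 fold change was 0.31 (SE 0.083, adjusted p = 0.233), against 0.93 and 0.99 after the high dose at 8 and 24 h. ENSRNOT00000070912 (3617 bases) had 14.5, 11.1, 12.7, 9.26, and 15.2 CPM in vehicle and 21.3, 20.2, 11.1, 23.9, and 22.1 CPM in low-dose hearts at 8 h, and 7.77, 21.3, 13.4, 15.98, and 11.4 CPM and 31.5, 24.5, 12.9, 18.9, and 12.9 CPM at 24 h. Its groups overlapped at both times (pooled 0.59, SE 0.19, adjusted p = 0.349), and the high-dose hearts of 8 h had 32.7 to 47.6 CPM. In the liver both rose after the low dose, by 1.31 and 2.36 on the log2 scale (adjusted p = 9.16e-05 and 2.02e-05).

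The most abundant heart transcripts were measured closely. The 5 with the highest mean TPM had medians from 46854 to 65171 TPM in vehicle hearts and log2 fold changes from -0.16 to -0.05 after the low dose, and none passed. ENSRNOT00000050156, the highest, had -0.06 (95% confidence interval -0.16 to 0.04, adjusted p = 0.876). ENSRNOT00000046201, a transcript of only 204 bases, had -0.16 (-0.30 to -0.02, adjusted p = 0.607). For ENSRNOT00000049683, ENSRNOT00000046108, and ENSRNOT00000043693 the values were -0.08, -0.05, and -0.08 (adjusted p = 0.857, 0.925, and 0.815). All 5 intervals lay between -0.30 and 0.06 on the log2 scale, so that a change of the size of the fold limit was outside them.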

How the data were processed

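RNA from whole hearts, kidneys, and livers was sequenced by the authors as stranded poly-A libraries. Per the labels, reads were pseudo-aligned with Kallisto 0.42.2 to the rat transcriptome (Rnor_6.0). The authors deposited an estimated count per target, not normalized, and its TPM, scaled by target length and library. Each table lists 40071 transcripts and 25095 genomic intervals, whose choice is not described in the sources used here. Only transcripts were tested.

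Estimated counts were rounded and analysed with edgeR 4.0.16 in R 4.3.3 (default low-count filter, TMM scaling, quasi-likelihood test, Benjamini-Hochberg adjustment over all transcripts tested). Duration was a covariate, and its interaction with dose was fitted separately. A call needed an adjusted p-value up to 0.01 with a fold change of 0.60 or more in size on the natural-log scale. Both numbers are those of the study, which applied the second to another effect size. The looser call needed only an adjusted p-value up to 0.05. CPM values were scaled by TMM over the 30 hearts. Each group of 5 came from separate rats. Library depth and interval share were compared by permutation tests (two-sided, 100000 resamples). The test scripts were checked on simulated data.

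Transcripts were named by rule: those called (strict, then looser with a mean of at least 2 CPM), then the 5 per direction with the smallest p-values, those without overlap of the groups, and the 5 with the highest mean TPM. Those called in other comparisons or by DESeq2 were added after their values were seen. The comparison, rule, and lists were chosen with earlier results of these data known. Alternatives were DESeq2 1.42.0, limma 3.58.1 after a log2 transform of TPM with a pseudocount of 1 or 0.1, other filters, scaling, and sample sets, and leaving out each library. DESeq2 kept its default filter on low mean counts, so its adjustment can cover fewer transcripts than that of edgeR. Percentages for DESeq2 are of all transcripts that entered the fit. Adding the interval share, leaving out MS-89 and MS-90, and leaving out the liver libraries MS-1 and MS-9 were chosen after seeing the data. Preset gene and marker lists could not be read without gene names. Python 3.11.15 with numpy 2.4.6, scipy 1.17.1, pandas 2.3.3, and matplotlib 3.10.9 made the tables and plots.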

Additional observations from a re-analysis of the deposited data

Results flagged for a closer look

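A library far from the others of its group of 5, by Dixon's criterion at the 95% level, occurred in 14 of 120 groups tested. In independent groups not chosen by their values, chance gives about 1 in 20, or 6. The transcripts here were chosen from these same values and share libraries, so 14 against 6 is no test of an excess. In the vehicle hearts of 8 h, MS-76 was the highest for ENSRNOT00000078349 (228.9 CPM, the others 158.8 to 177.7), ENSRNOT00000050063 (8.47 CPM, the others 3.85 to 4.98), and ENSRNOT00000037181 (11.6 CPM, the others 4.26 to 5.83). MS-73 was the highest for ENSRNOT00000007338 (544.0 CPM, the others 419.1 to 440.6). Among the vehicle hearts of 24 h, MS-61 was the highest for ENSRNOT00000005645 (13.7 CPM, the others 9.35 to 10.2) and ENSRNOT00000028066 (9.49 CPM, the others 7.54 to 8.06), and MS-80 was the highest for ENSRNOT00000003770 (14.6 CPM, the others 11.9 to 12.4) and the lowest for ENSRNOT00000003082 (5.58 CPM, the others 6.58 to 6.90).

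In low-dose hearts of 8 h, MS-78 was the highest for ENSRNOT00000020505 (19.4 CPM, the others 7.63 to 10.5) and MS-90 for ENSRNOT00000017687 (9.12 CPM, the others 6.61 to 7.31). At 24 h, MS-65 was the highest for ENSRNOT00000003343 (40.6 CPM, the others 13.8 to 21.4). MS-90 also had the lowest transcript total of its group (14098048, the others 25368720 or more) and the highest share of counts on intervals (13.7%, the others 5.40 to 7.57%), and MS-89 had the highest such share among the vehicle hearts of 8 h (20.3%, the others 5.66 to 9.45%).

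In the edgeR interaction over 20 libraries, the low-dose difference itself differed between 8 and 24 h for ENSRNOT00000035491 (by -0.71 on the log2 scale, adjusted p = 0.0388). The same held for ENSRNOT00000011648 (by -0.72, adjusted p = 0.0388), with 24 h the lower of the times in both. Neither passed with all 30 hearts in the fit, nor in 16 of the 20 fits without 1 library.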

How the results depend on the processing

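No paired analysis was possible because the labels give no replicate number that groups share. Their library numbers are not said to mark sets of rats. Sums per gene were not run, since no table used here pairs transcripts with genes. At the strict threshold the pooled count of 0 became 5 with DESeq2 (0.0274%). It became 1 (0.00549%) with an adjusted p-value of 0.05 and the fold limit kept. It stayed 0 without each single library and under the other alternatives. The looser count of 6 (0.0329% of transcripts tested) became 71 higher and 30 lower with DESeq2 (0.554%), 3 (0.0165%) and 1 (0.00549%) with limma on log2 TPM with 1 and 0.1 added, and 0 (0.0%) without MS-89 and MS-90. Without single libraries it ranged from 0 to 32 (0.0 to 0.174%), the highest without MS-76. It was 4 to 5 with the other filters, RLE scaling, no duration term, the interval share, or all 30 hearts. At 8 h, DESeq2 gave 1 (0.00565%), and 16 (0.0904%) at an adjusted p-value of 0.05, while leaving out 1 library gave 0 to 1. At 24 h, DESeq2 gave 7 (0.0395%) and all 15 hearts of 24 h gave 2 (0.0109%). At an adjusted p-value of 0.05 the 6 calls became 198 with DESeq2 (110 higher, 88 lower, 1.12%). They became 8 with all 15 hearts (0.0437%), and 0 to 8 without single libraries. The interaction gave 4 at 0.01 with DESeq2 (0.0213%). Its 2 calls at 0.05 became 9 with DESeq2 (0.0479%), 0 with all 30 hearts, and 0 to 4 without single libraries. The cause of these shifts was not tested. The fold changes of the 6 called transcripts stayed positive under all 30 alternatives each. At 8 h alone, the pooled negative values of ENSRNOT00000035491 and ENSRNOT00000011648 were positive (0.088 and 0.20). The difference in interval share was -1.40 percentage points at 8 h alone, 4.11 at 24 h alone, and 0.293 to 2.497 without single libraries. The difference in depth was -1444879 counts at 24 h alone and -398464 to 1553572 without single libraries, with negative values without MS-89 (-398464) and MS-78 (-122309).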
